A study of Caenorhabditis elegans with 3 samples.

Results

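The genes described here carry the names of translation initiation and elongation factors in the nematode Caenorhabditis elegans. They were chosen by name, as every protein-coding gene whose Ensembl name on assembly WBcel235 begins with eif-, eef-, iff-, ife- or ifg-, which gave 39 genes of 19973 that code for protein in the nuclear genome. Around each annotated 5′ end of such a gene a promoter window was drawn that began 1000 bp before it and stopped 200 bp after it, and the peak with the highest signal whose summit fell in that window was taken in each list. The choice of genes by name used no measured value, though the peak of each gene was picked by its signal. The name rule leaves out factors with other names, such as drr-2, an eIF4H homolog. The lists came from a chromatin immunoprecipitation and sequencing (ChIP-seq) experiment on PQM-1, a zinc-finger transcription factor, in whole L1 larvae, the larval stage that hatches from the egg. All samples were of strain OP201, genotype unc-119(tm4063) III; wgIs201, which carries PQM-1 fused at its C terminus to a GFP-FLAG tag, and held both sexes. The age of the larvae is labelled unknown. There was 1 group of 3 biological replicates and no untagged or mutant group, so the factor genes are set beside all protein-coding genes and no difference between conditions can be given. Whole larvae were used, so a peak found in few cells and a weak peak in many cells cannot be told apart.

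Translation initiation factors bring the initiator tRNA, the small ribosomal subunit and the capped mRNA together, and elongation factors then deliver aminoacyl-tRNAs and move the ribosome along the mRNA. In C. elegans some of these factors are encoded by paired or expanded gene families, among them a pair of eEF1A genes, a pair of eIF5A genes and several eIF4E genes. PQM-1 is known for its part in the insulin signalling and stress responses of the worm, and the DAF-16-associated element linked to it carries a GATA core. Many C. elegans mRNAs are trans-spliced, so an annotated 5′ end may be a splice-leader site that lies downstream of the place where transcription starts.

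The sequences at 5 summits are shown because 4 belong to the eEF1A, eEF1B and eIF5A genes described in most detail and 1, at eif-3.B, holds a GATA word. Each is the 101 bases centred on the summit of the best pooled peak, read 5′ to 3′ on the strand of the gene from the RefSeq genome of WBcel235, the assembly that ce11 names. Capitals mark a GATA word, defined as GATA preceded by A or T and followed by A or G on either strand, and sequences in lower case throughout hold none. The stretches lie at chrX:7823169-7823269 for eef-1A.2, chrII:8561450-8561550 for iff-2, chrIII:7973390-7973490 for eef-1B.1, chrIII:6972061-6972161 for eef-1A.1 and chrII:14795048-14795148 for eif-3.B. The genes eef-1A.2 and eif-3.B are on the forward strand, and iff-2, eef-1B.1 and eef-1A.1 are on the reverse strand. The choice of eef-1A.1 and eif-3.B for display was made after their values were seen.
eef-1A.2: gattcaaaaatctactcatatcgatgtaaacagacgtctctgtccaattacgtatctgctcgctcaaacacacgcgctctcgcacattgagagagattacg
iff-2: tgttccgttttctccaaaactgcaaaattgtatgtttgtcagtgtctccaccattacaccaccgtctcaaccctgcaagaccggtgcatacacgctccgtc
eef-1B.1: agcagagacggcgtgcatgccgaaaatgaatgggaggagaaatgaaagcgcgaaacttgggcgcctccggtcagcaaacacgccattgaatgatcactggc
eef-1A.1: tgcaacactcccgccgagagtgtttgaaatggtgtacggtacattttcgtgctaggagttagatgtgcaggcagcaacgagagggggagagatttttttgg
eif-3.B: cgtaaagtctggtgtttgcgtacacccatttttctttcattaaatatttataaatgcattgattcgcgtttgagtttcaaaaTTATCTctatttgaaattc
The base composition of these stretches differed widely. The share of G and C was 43.6% at eef-1A.2, 48.5% at iff-2, 54.5% at eef-1B.1, 49.5% at eef-1A.1 and 29.7% at eif-3.B.

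The 3 replicate lists and the list called on the pooled alignments held 30000 peaks each, background peaks included, so a low rank alone does not mark a bound site. The signal of a peak is the value the authors' caller gave it, on a scale that differs between lists, so it serves here for ranks inside each list alone, with rank 1 the highest. The peak at rank 3000 had a signal of 21.5 in the pooled list, 12.6 in replicate 1, 7.16 in replicate 2 and 8.89 in replicate 3. Replicate 3 stood apart, since 28.2% of its 3000 highest peaks fell in a promoter window of a protein-coding gene, against 46.7% in replicate 1 and 48.6% in replicate 2. A further list of 682 peaks was kept by the authors with the irreproducible discovery rate (IDR), which weighs how alike peaks are ranked in replicates, and these were the 682 highest peaks of the pooled list. The sequencing depth of the replicates is unknown.

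The IDR list held a window peak for 2 of the 39 genes (5.13%), which were eef-1A.2 and iff-2, against 2.18% of all protein-coding genes. A pooled peak among the 3000 highest was found for 5 (12.8%), which were eef-1A.2, iff-2, eif-3.J, eef-2 and eef-1B.1, against 8.23% of all protein-coding genes. Any pooled peak was found for 22 (56.4%), against 41.9% of all protein-coding genes. With each summit given only to the gene whose 5′ end is nearest, that count was 15 (38.5%) against 37.5%, so the excess in the count of any pooled peak was not seen under that rule. The median best pooled rank over the 39 genes was 26719, counting a gene without a peak as rank 30001, and the median over all protein-coding genes was a gene without a peak. A minority of the translation factor genes thus had a high-ranked peak, and most either ranked low or had none. The same holds for all protein-coding genes.

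**Figure D1:**
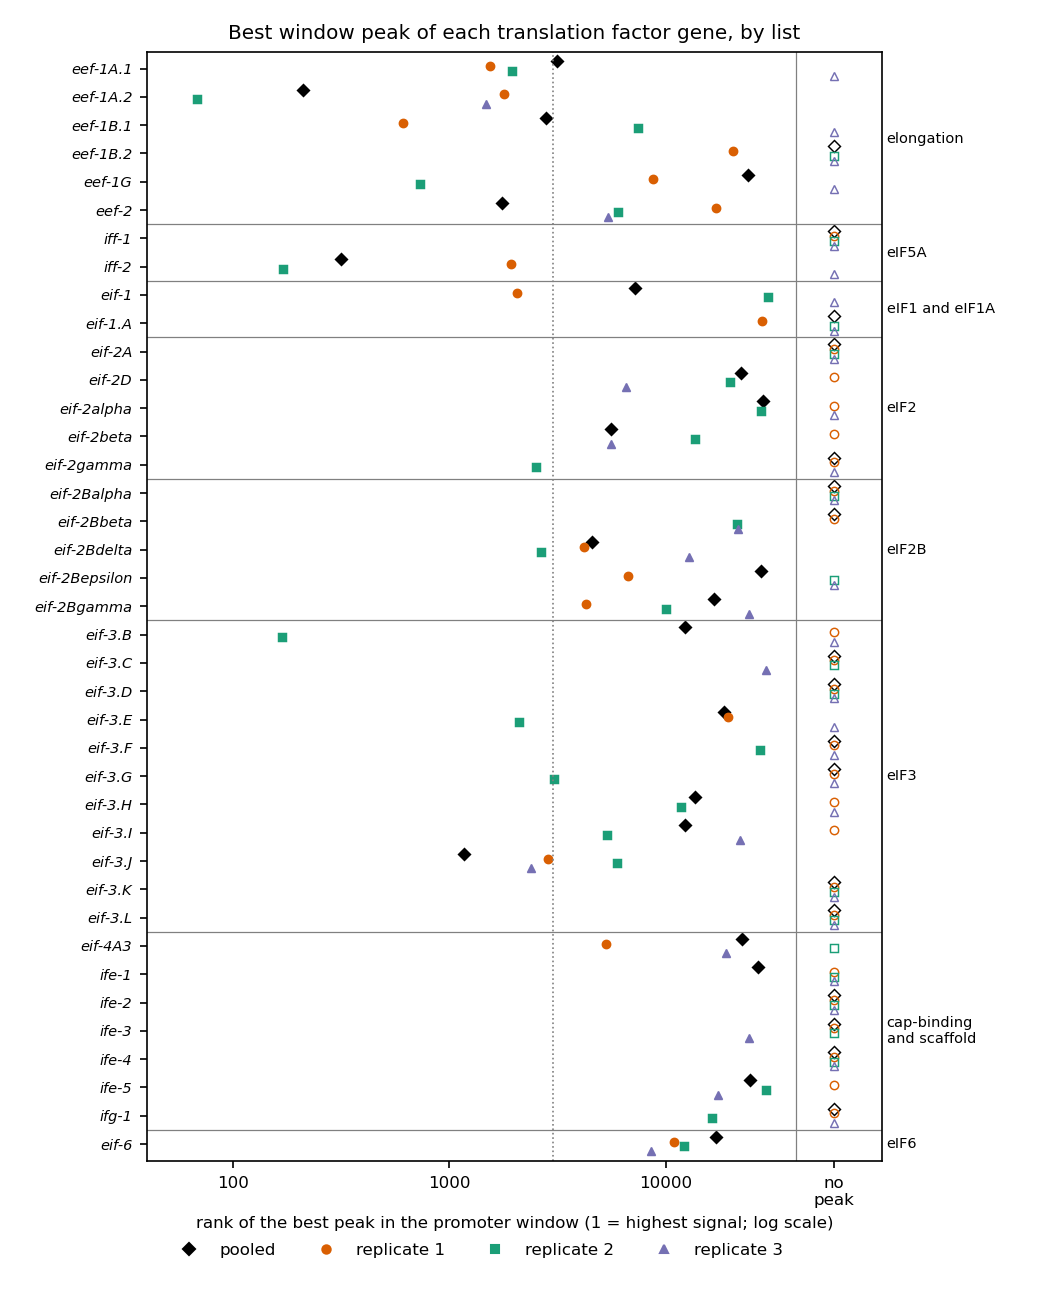
Rank of the best promoter-window peak (log scale, rank 1 the highest signal) for each of the 39 translation factor genes, by role, in the pooled list (black diamonds) and in replicates 1 (orange circles), 2 (green squares) and 3 (purple triangles). Open symbols at the right mark lists with no window peak and the dotted line marks rank 3000; eef-1A.2 is the gene whose 4 symbols all lie left of that line.

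The share of translation factor genes with a peak varied between replicates by more than it differed from the share of all genes. Any window peak was found for 16 genes (41%) in replicate 1, where 43.3% of all protein-coding genes had one. In replicate 2 it was 24 genes (61.5%) against 42.7%, and in replicate 3 it was 14 genes (35.9%) against 35.5%. Over the replicates the share averaged 46.2% ± 13.6 for the translation factor genes and 40.5% ± 4.34 for all protein-coding genes (SD, n = 3). The difference averaged 5.68 ± 11.5 percentage points (SD, n = 3), which is smaller than its spread, and was -2.24, 18.9 and 0.42 points in replicates 1, 2 and 3.

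Among the 3000 highest peaks of a list the share was the higher one for translation factor genes in each replicate, by an amount that ran from almost nothing to 12.1 percentage points. Replicate 1 had 6 genes (15.4%) against 7.95% of all protein-coding genes, replicate 2 had 8 (20.5%) against 8.37%, and replicate 3 had 2 (5.13%) against 4.63%. The mean share was 13.7% ± 7.83 for translation factor genes and 6.98% ± 2.05 for all protein-coding genes (SD, n = 3). The difference averaged 6.7 ± 5.86 percentage points (SD, n = 3) and was 7.44, 12.1 and 0.502 points in replicates 1, 2 and 3. Most of it therefore came from replicates 1 and 2, and in replicate 3 the share was near the background. No test was made of these shares. Among the 682 highest peaks of a list the counts were 1 in replicate 1 (eef-1B.1), 3 in replicate 2 (eef-1A.2, eif-3.B and iff-2) and 0 in replicate 3, beside 2.15%, 2.36% and 1.34% of all protein-coding genes.

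**Figure D2:**
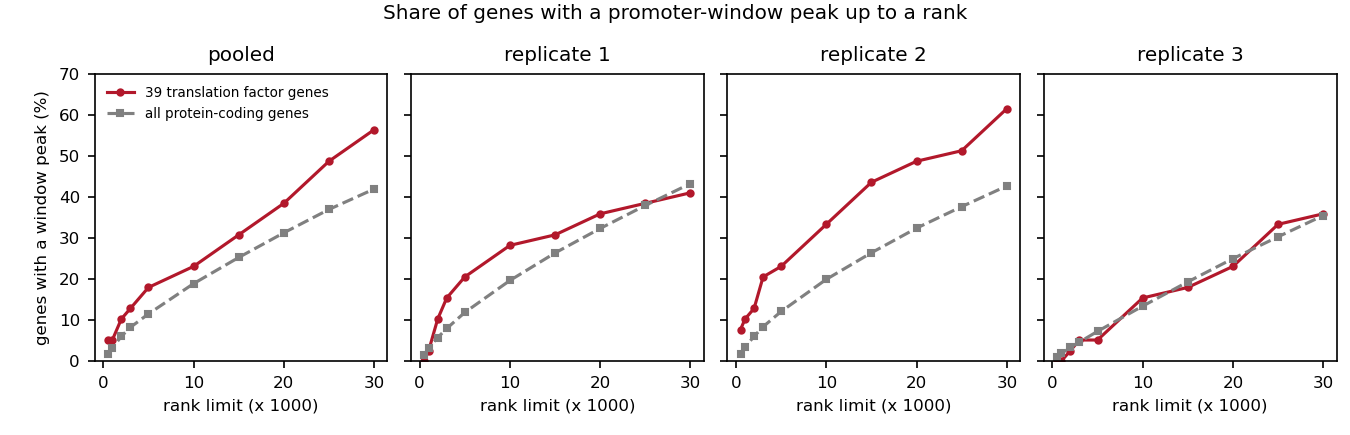
Percentage of genes with a promoter-window peak up to a given rank (x axis, in units of 1000) for the 39 translation factor genes (red solid line) and all protein-coding genes (grey dashed line), in the pooled list and each replicate. The red line ends at 56.4% in the pooled list and 61.5% in replicate 2, above the grey line, and its end differs from that of the grey line by -2.24 percentage points in replicate 1 and 0.42 in replicate 3.

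Most of the genes with a high-ranked peak had it in 1 replicate. A peak among the 3000 highest was found for 11 genes (28.2%) in at least 1 replicate, against 15.5% of all protein-coding genes. In at least 2 replicates it was found for 4 genes (10.3%), eef-1A.1, eef-1A.2, eif-3.J and iff-2, against 4.33% of all protein-coding genes. In all 3 replicates it was found for eef-1A.2 alone (2.56%), against 1.08% of all protein-coding genes. With any rank allowed, 6 genes (15.4%) had a window peak in all 3 replicates, eef-1A.2, eef-2, eif-2Bdelta, eif-2Bgamma, eif-3.J and eif-6, against 12.4% of all protein-coding genes. A window peak in at least 2 replicates was found for 18 genes (46.2%) against 37.4%, and in at least 1 replicate for 30 genes (76.9%) against 71.6%. Shares this close to those of all genes are not a result about the translation factor genes.

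Elongation factor genes held the highest pooled rank of the set and 3 of its 5 peaks among the 3000 highest. Of the 6 elongation genes, 5 had a pooled window peak and 3 had one among the 3000 highest, whereas of the other 33 genes 17 (51.5%) had a pooled peak and 2 (6.06%) had one among the 3000 highest. Of all protein-coding genes 41.9% had a pooled peak and 8.23% had one among the 3000 highest. The other 33 genes thus lay above the first share and below the second. A window peak was found for 6 of the 6 elongation genes in replicate 1, 5 in replicate 2 and 2 (33.3%) in replicate 3, beside 43.3%, 42.7% and 35.5% of all protein-coding genes, and the count in replicate 3 is near the background. The 33 initiation and eIF5A genes gave 10 (30.3%), 19 (57.6%) and 12 (36.4%) in replicates 1, 2 and 3. Among the 3000 highest, the elongation genes numbered 3 (50%), 3 (50%) and 1 (16.7%) in replicates 1, 2 and 3. The other 33 genes numbered 3 (9.09%), 5 (15.2%) and 1 (3.03%), beside 7.95%, 8.37% and 4.63% of all protein-coding genes. Of the elongation genes with such a pooled peak, eef-2 had none in any replicate and eef-1B.1 had one in replicate 1 alone. These groups are small and their difference was not tested.

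The eEF1A genes encode the factor that carries aminoacyl-tRNA to the ribosome. The best peak of eef-1A.2 (WBGene00001169) ranked 211 in the pooled list, 1788 in replicate 1, 68 in replicate 2 and 1478 in replicate 3, a replicate mean of 1111 ± 916.8 (SD, n = 3). Its signal was 48.9 in the pooled list and 14.4, 22.3 and 10.1 in replicates 1, 2 and 3. The pooled peak, chrX:7823074-7823363, is intergenic with its summit 435 bp upstream of the 5′ end of the gene, and it lies in the window of no other protein-coding gene. The summits of replicates 2 and 3 lay 16 and 3 bp from the pooled summit, but that of the best peak of replicate 1 lay 163 bp away, at 272 bp upstream. The gene thus had a high-ranked peak in every replicate without the same summit in each.

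Its paralog eef-1A.1 (WBGene00001168) ranked 3155 in the pooled list, just outside the 3000 highest, and 1538 and 1944 in replicates 1 and 2. Replicate 3 held no peak in its window, where the lowest signal of the whole list is 4.32. The pooled signal was 21.2, and the signals were 15 in replicate 1 and 8.24 in replicate 2. The peak, chrIII:6971966-6972255, has its summit 399 bp upstream of eef-1A.1, and the replicate summits lay 78 and 9 bp from it. It also lies in the window of rfc-4, a replication factor C gene on the opposite strand whose 5′ end is the nearer one, and it overlaps the microRNA gene cel-mir-5549. The peak therefore cannot be given to eef-1A.1 rather than to its neighbours, whereas that of eef-1A.2 has no other candidate among protein-coding windows. The best peaks of eef-1A.2 in replicates 1 and 2 do, however, overlap the non-coding RNA gene R03G5.8.

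The eEF1B subunits exchange GDP for GTP on eEF1A. The best peak of eef-1B.1 (WBGene00018846) ranked 2793 in the pooled list, 608 in replicate 1 and 7438 in replicate 2, and replicate 3 held none. The pooled peak, chrIII:7973295-7973584, had a signal of 21.9, and its summit lay 54 bp upstream of the gene, over the non-coding RNA gene F54H12.9 and within the window of aco-2, an aconitase gene. The best peak of replicate 2 lay 509 bp from the pooled summit, in an intron of aco-2, and the peak of that replicate at the pooled place ranked 20208. The signals at the best peaks were 19.7 in replicate 1 and 5.3 in replicate 2. Only replicate 1 thus placed a high-ranked peak at this summit.

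Values of the remaining eEF1B genes depended on the replicate. The gene eef-1B.2 had no pooled peak and 1 replicate peak, at rank 20558 in replicate 1. For eef-1G, the gamma subunit gene, the ranks were 24055 in the pooled list, 8739 in replicate 1 and 728 in replicate 2, with none in replicate 3. The high-ranked peak of replicate 2 had its summit 41 bp upstream of eef-1G, 477 bp from the pooled summit, which lies in a coding exon of ctf-4. The replicate 2 summit also falls in the window of ctf-4, though the 5′ end of eef-1G is the nearest. The gene was singled out after its values were seen.

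The translocase eEF2 moves the ribosome to the next codon. Its gene eef-2 (WBGene00001167) ranked 1751 in the pooled list and 17030, 6047 and 5403 in replicates 1, 2 and 3, a mean of 9493 ± 6535 (SD, n = 3). The signals were 25.2 in the pooled list and 7.54, 5.7 and 7.81 in replicates 1, 2 and 3. The pooled peak is chrI:9163369-9163658, with its summit 17 bp upstream, and it also lies in the window of clsp-1. The summits of replicates 2 and 3 lay 5 and 18 bp from the pooled one, while that of replicate 1 lay 440 bp away in a coding exon of clsp-1. No replicate placed eef-2 among its 3000 highest peaks, although the pooled list did.

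The factor eIF5A helps the ribosome form difficult peptide bonds, and C. elegans has a pair of genes for it with different patterns here. The best peak of iff-2 (WBGene00002065) ranked 315 in the pooled list, 1932 in replicate 1 and 170 in replicate 2, and replicate 3 held none in the window. Its signal was 44.3 in the pooled list, 14.2 in replicate 1 and 17.5 in replicate 2. The pooled peak, chrII:8561355-8561644, has its summit in intergenic sequence 133 bp upstream of iff-2, and the replicate summits lay 30 and 0 bp from it. It also falls in the window of F54C9.14, on the opposite strand, though the 5′ end of iff-2 is the nearest. For iff-1, the paralog needed in the germline, none of the 4 lists held a window peak.

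The factors eIF1 and eIF1A act in start-codon selection on the small subunit. The best peak of eif-1 ranked 7238 in the pooled list, 2052 in replicate 1 and 29820 in replicate 2, with none in replicate 3. The signals were 17.2 in the pooled list, 14 in replicate 1 and 2.66 in replicate 2, the last close to the lowest signal of its list, 2.65. The pooled summit lay 227 bp upstream of eif-1 and closer to the 5′ end of vps-24, a vacuolar sorting gene. The 1 peak of eif-1.A ranked 27763, in replicate 1.

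The eIF2 complex carries the initiator tRNA, and eIF2B is the exchange factor that recharges it. The 5 genes named eif-2 followed by alpha, beta, gamma, A or D were grouped by name, not as subunits of the eIF2 complex. Of these 5 genes, 3 had a pooled peak, against 41.9% of all protein-coding genes. None had one among the 3000 highest, against 8.23%. Replicates 1, 2 and 3 gave a peak for 0, 4 and 2 of the 5, against 43.3%, 42.7% and 35.5%. The best pooled peak of the group was that of eif-2beta at rank 5588, with 13655 in replicate 2, 5613 in replicate 3 and none in replicate 1. Its signals were 18.4 in the pooled list, 4.17 in replicate 2 and 7.74 in replicate 3. The pooled summit lay 177 bp upstream over the non-coding gene K04G2.15. The gene eif-2gamma reached the 3000 highest once, at rank 2506 in replicate 2, with no peak in the other lists. That summit lay 963 bp upstream and also in the window of tbca-1, whose 5′ end is the nearer one.

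Of the 5 eIF2B genes, 3 had a pooled peak, against 41.9% of all protein-coding genes. Each replicate gave a peak for 3, against 43.3%, 42.7% and 35.5% in replicates 1, 2 and 3. The genes eif-2Bdelta and eif-2Bgamma had one in every replicate. The gene eif-2Bdelta ranked 4546 in the pooled list and 4184, 2639 and 12835 in replicates 1, 2 and 3, a mean of 6553 ± 5495 (SD, n = 3). Its signals were 19.3 in the pooled list and 11.6, 7.45 and 6.18 in the replicates. The summits of the pooled list and of replicates 1 and 3 lay over the pseudogene WBGene00014734, at 715, 708 and 742 bp upstream. That of replicate 2 lay in the 5′ UTR of eif-2Bdelta itself, 741 bp from the pooled summit, so the best peak was not at the same place in the 3 replicates. The ranks of eif-2Bgamma were 16800 in the pooled list and 4296, 10073 and 24273 in the replicates, a mean of 12881 ± 10280 (SD, n = 3). Its summits in the pooled list and in replicates 1 and 3 lay 819, 783 and 809 bp upstream, over the non-coding genes C15F1.14 and sup-39. That of replicate 2 lay in an intron of C15F1.5, 149 bp from the pooled summit.

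The largest group was eIF3, the scaffold that joins the small subunit to the mRNA. Of the 11 genes named eif-3, 5 had a pooled peak and 1 had one among the 3000 highest. These counts are near the 41.9% and 8.23% of all protein-coding genes. Replicates 1, 2 and 3 gave a peak for 2, 7 and 3 of the 11, against 43.3%, 42.7% and 35.5%. The gene among the 3000 highest was eif-3.J (WBGene00012738), the loosely bound subunit. Its ranks were 1164 in the pooled list and 2863, 5968 and 2381 in replicates 1, 2 and 3, a mean of 3737 ± 1947 (SD, n = 3). The signals were 28.6 in the pooled list and 12.8, 5.73 and 9.31 in the replicates. Its pooled peak, chrI:13434366-13434655, has its summit 978 bp upstream of eif-3.J, near the outer edge of the window and inside the 3′ UTR of slc-25A46. The replicate summits lay 0, 8 and 53 bp from the pooled one, which made eif-3.J the 1 gene of the set with a replicate peak at that place in all 3.

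Other eIF3 genes had high ranks in replicate 2 alone. The gene eif-3.B ranked 168 in replicate 2, with a signal of 17.5, yet 12271 in the pooled list and in neither replicate 1 nor replicate 3. Its pooled and replicate 2 summits lay 306 and 228 bp upstream in intergenic sequence, so both lists place a peak at nearly the same point. The gene eif-3.E ranked 2087 in replicate 2, against 18529 in the pooled list and 19358 in replicate 1. Its replicate 2 summit also falls in the window of B0511.17, though the 5′ end of eif-3.E is the nearest. These eIF3 genes were picked out with their values in view.

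Genes for cap-binding proteins and the scaffold had the lowest best pooled rank of the 8 role classes. The ife genes encode eIF4E, which binds the mRNA cap, and ifg-1 encodes the scaffold eIF4G. The name rule also places here eif-4A3, a helicase of the exon junction complex. Of these 7 genes 3 had a pooled peak, a count near the 41.9% of all protein-coding genes. The best, eif-4A3, ranked 22472, with 5278 in replicate 1, 19030 in replicate 3 and none in replicate 2. Its signals were 12.2 in the pooled list, 10.9 in replicate 1 and 5.36 in replicate 3, with the pooled summit 629 bp upstream in a coding exon of vps-20.

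Among the eIF4E paralogs no peak ranked above 17438. The gene ife-1 had a peak in the pooled list alone, at rank 26719. For ife-5 the ranks were 24422 in the pooled list, 29186 in replicate 2 and 17438 in replicate 3. The gene ife-3 had 1 peak in its window, at rank 24298 in replicate 3. Just beyond the window, 1064 bp upstream of ife-3, lay a pooled peak at rank 1780 (chrV:8747-9036), so its value depends on the 1000 bp limit. The genes ife-2 and ife-4 had no window peak in any list, and ifg-1 had 1, at rank 16393 in replicate 2.

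The factor eIF6 keeps the ribosomal subunits apart. Its gene eif-6 had replicate ranks of like size, at 17133 in the pooled list and 10893, 12134 and 8582 in replicates 1, 2 and 3, a mean of 10536 ± 1803 (SD, n = 3). The signals were 13.4 in the pooled list and 8.84, 4.38 and 6.95 in the replicates. The summit of replicate 3 lay 437 bp from the pooled one, in a coding exon of pbs-2, a proteasome subunit gene. In all, 8 genes (20.5%) had no window peak in any of the 4 lists, against 26.8% of all protein-coding genes. These were eif-2A, eif-2Balpha, eif-3.D, eif-3.K, eif-3.L, ife-2, ife-4 and iff-1.

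Peaks inside the gene but outside its window were counted apart. A peak of this kind among the 3000 highest of at least 1 replicate was found for 4 genes (10.3%), against 14% of all protein-coding genes. The genes were eef-1B.2 at rank 2346 in replicate 3, eif-1.A at 2674 in replicate 2, eif-2A at 2263 in replicate 1 and eif-6 at 990 in replicate 3. The share was below that of all genes, with a median gene length of 2152 bp for the translation factor genes and 2027 bp for all protein-coding genes.

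Peaks at the same place were next counted, because the best peak of a gene may sit at different points of the window in different lists. Of the 22 best pooled summits of translation factor genes, 3 had no replicate summit within 100 bp, 7 had 1, 11 had 2 and 1 had 3. The shares were 13.6%, 31.8%, 50% and 4.55%, beside 13.6%, 46.9%, 30.6% and 8.92% of the 8377 protein-coding genes with a pooled peak. Peaks present in all 3 replicates at one place were thus few in both.

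Most translation factor genes have a close upstream neighbour, which limits how far a peak can be given to them. The nearest upstream gene lay on the opposite strand within 2000 bp for 20 of the 39 genes (51.3%), against 25% of all protein-coding genes, and on the same strand within 1000 bp for 12 (30.8%) against 27.8%. A pooled peak was found for 13 of the 20 and for 4 of the 12, where 46.4% and 39.9% of all genes of these kinds had one. The best pooled summit also fell in the window of another gene for 11 of the 22 genes with a peak (50%), against 23.9% of all genes with a peak. In replicates 1, 2 and 3 this held for 56.2%, 50% and 35.7% of the translation factor genes with a peak, against 23.8%, 24.7% and 19% of all genes with one. The 5′ end of the translation factor gene was the nearest for 15 of the 22, against 87.8% of all genes. The median window length was 1201 bp for the translation factor genes and 1201 bp for all.

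Summits lay upstream of the 5′ end for 21 of the 22 genes, against 84% of all genes with a pooled peak. The median distance was 349 bp upstream for the translation factor genes and 290 bp for all genes. The 5 pooled peaks among the 3000 highest ranged from 17 bp upstream at eef-2 to 978 bp at eif-3.J, so they did not share a position. In addition, 5 of the 22 peaks overlapped an annotated non-coding gene or pseudogene. The like share over all genes was not counted, so this count is not a result about the translation factor genes.

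**Figure D3:**
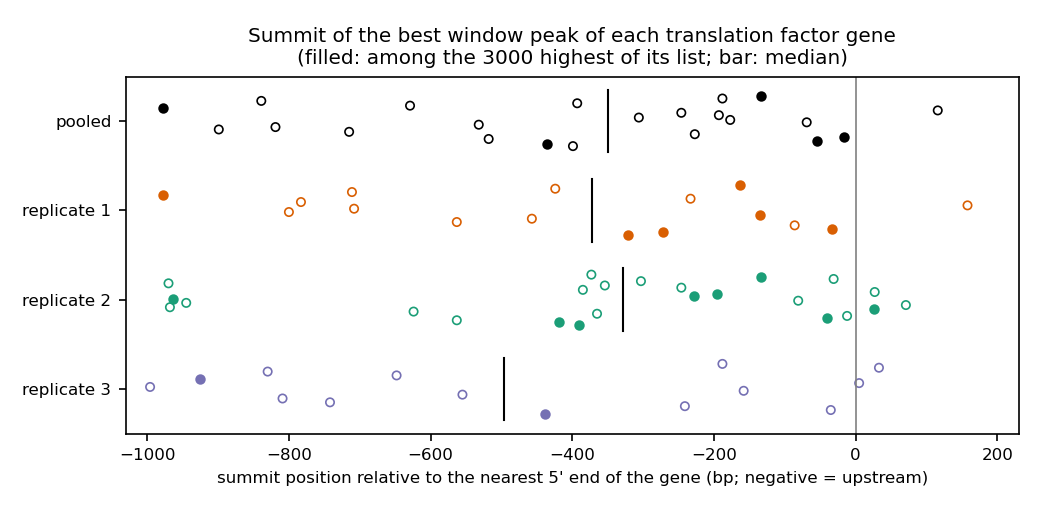
Position of the summit of the best window peak relative to the nearest 5′ end of each translation factor gene (bp, negative upstream), by list. Filled symbols are peaks among the 3000 highest of the list, height within a row has no meaning, and bars are medians, at 349 bp upstream in the pooled list and 372, 328 and 496 bp upstream in replicates 1, 2 and 3.

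The summits of translation factor genes rarely held a GATA word. TGATAA, on either strand and within 50 bp of the summit, was found at 1 of the 22 best pooled summits (4.55%), that of eif-3.E, against 18% of the summits of all genes. The longer TGATAAG, which contains it, was at 0 of 22 against 7.89%, and the looser GATA word defined above, which also contains TGATAA, was at 2 of 22 (9.09%), eif-3.B and eif-3.E, against 28.3%. At the 5 genes with a peak among the 3000 highest none of the 3 words was found, whereas 37.5%, 21.4% and 47.8% of the like summits of all genes held the core word, the longer word and the looser word. The printed stretches of eef-1A.2, iff-2, eef-1B.1 and eef-1A.1 thus hold no capitals. In the replicates TGATAA was at 0 of 16, 1 of 24 and 0 of 14 summits, against 16.9%, 16.2% and 13.4% for all genes.

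**Figure D4:**
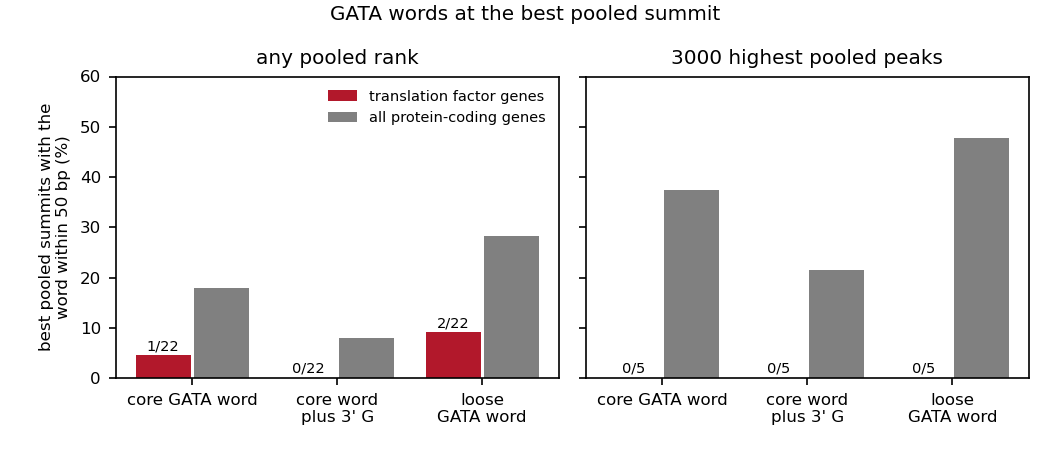
Percentage of best pooled summits with each GATA word within 50 bp, for translation factor genes (red, with counts above the bars) and all protein-coding genes (grey), at any pooled rank (left) and among the 3000 highest pooled peaks (right). The red bars stand at 4.55%, 0 and 9.09% on the left and at 0 on the right, below each grey bar.

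The distance to the nearest TGATAA was also taken at the 5 summits among the 3000 highest. These summits held no TGATAA within 50 bp, so the distance is not a separate line of evidence. The distance was 64 bp at eef-1B.1, 154 bp at eef-2, 288 bp at iff-2, 351 bp at eif-3.J and 425 bp at eef-1A.2. The median was 288 bp, against 86 bp for all genes with a peak among the 3000 highest. Over the 22 genes with a pooled peak the median was 294 bp, against 261 bp for all genes with one. The proximal promoters themselves, from 250 bp upstream to 50 bp downstream, held TGATAA in 13 of 39 genes (33.3%), against 30.2% of all protein-coding genes, and TGATAAG in 1 (2.56%, eif-1) against 9.2%. TGATAA was in the proximal promoter of 8 of the 22 genes with a pooled peak and of 5 of the 17 without. A missing word says only that these letters are not in the stretch searched.

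The summits of translation factor genes were also richer in G and C. The median share of G and C in the 101 bases was 43.6% (range 18.8% to 60.4%, n = 22 genes), against 37.6% for all genes with a pooled peak. Among the 3000 highest it was 48.5% (range 43.6% to 54.5%, n = 5 genes) against 39.6%. Above the median of all genes, 1 of 15 translation factor summits held TGATAA against 13.1% of all summits, and at or below it 0 of 7 against 22.7%. At summits in the window of a single gene it was 0 of 11 against 18.8%, and at shared summits 1 of 11 against 15.8%. Each class held 0 or 1 such summit, too few to show a lower share within a class, and both splits use the same 22 summits. The part of base composition or shared windows in the low count was not tested.

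Other genes of translation were counted from lists of names. The lists were chosen with earlier results of these data known, so their shares are a description. Of 78 ribosomal protein genes, 24 (30.8%) had a pooled peak among the 3000 highest, and of 32 aminoacyl-tRNA synthetase genes 3 (9.38%) had one, qars-1, pars-2 and mars-1, beside 8.23% of all protein-coding genes. The share of the synthetase genes is near that of all genes. Of 20 further translation genes 5 (25%) had one. These were ifet-1, the eIF4E-binding translational repressor, at rank 339, drr-2, an eIF4H homolog, at 500, pab-2, a poly(A)-binding protein gene, at 810, erfa-3, a release factor gene, at 1213, and cgh-1, an RNA helicase gene, at 2102. None of the 4 mitochondrial translation factor genes had one. Among the translation factor genes the share was 12.8%, and the differences between these lists were not tested.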

How the data were processed

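The authors called peaks for single replicates and for their pooled alignments, per the README files deposited beside them, with 1 control file that was not analysed here. The sources used here name no aligner, peak caller or IDR threshold, and read depth is unknown. Ranks follow column 7, the signal that the authors' caller gave to a peak, and peaks tied in signal share the lower rank. Column 9 of the deposited lists, treated as a score of unstated meaning, served as an alternative ranking added after seeing the data. Positions are on ce11, 1-based. Genes are from Ensembl release 115 and sequence from the RefSeq genome of WBcel235.

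The samples formed 1 group, so counts, ranks and medians were set beside those of all 19973 protein-coding genes, without a test. A summit counted for every gene whose window held it. The members and lists were chosen with earlier results of these data known. Named with values in every list were genes with an IDR peak, with a pooled peak among the 3000 highest or with such a peak in at least 2 replicates, the best pooled gene of each of 8 role classes, and the eEF1A, eIF5A, eIF4E and eIF4G genes. Genes without any peak were named. Of 26 other translation gene names, 2 (gfm-2 and iftb-1) had no entry in the annotation. The assignment of peaks to windows was tested on simulated data. Scripts ran under Python 3.11.15 with pandas 2.3.3, numpy 2.4.6 and SciPy 1.17.1, and figures were drawn with matplotlib 3.10.9.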

Additional observations from a re-analysis of the deposited data

How the results depend on the processing

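No paired analysis was possible because the samples form 1 group. The count of genes with an IDR peak was 2 under every alternative run, against 1.05% to 2.91% of all protein-coding genes. The 5 genes with a pooled peak among the 3000 highest became 2 (5.13%) with the 1000 highest, against 3.17% of all protein-coding genes. With the 10000 highest they became 9 (23.1%), against 18.9%. The count was 4 to 6 (10.3% to 15.4%) under the other alternatives, against 6.04% to 11.3%. The count of genes with a peak among the 3000 highest of every replicate was 1. It became 0 with the 1000 highest and 2 with the 10000 highest, against 0.421% and 2.95% of all genes. It was 0, against 0.786%, when each replicate summit had to lie within 100 bp of the pooled one, a rule added after seeing the data. Without replicate 1, 2 or 3 that count was 1, 2 and 3 genes, against 1.46%, 1.5% and 3.52% of all genes. The 1 summit of 22 with TGATAA became 3 within 100 bp and 0 within 25 bp, against 28.5% and 10% of the summits of all genes. It became 0 for TGATAAG and 2 for the looser word, against 7.89% and 28.3%. Genes with any pooled peak numbered 15 (38.5%) with the nearest gene alone counted, 16 (41%) with a window from 500 bp upstream, 21 (53.8%) with the outermost 5′ end alone and 26 (66.7%) with a window from 2000 bp upstream, beside 37.5%, 30.5%, 38% and 58.3% of all genes, so the excess was not seen with the nearest gene alone. The median pooled rank ran from 22472 to 30001, where 30001 stands for no peak. The mean of the replicate medians, 27145 ± 4947 (SD, n = 3), ran from 25716 to 30001 without one replicate. Ranking by columns 5 and 8 was not run, because each held 1 value throughout.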

Other observations

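After the printed sequences were seen, GAGAG and GAGA were looked for, on either strand, up to 50 bp from the best pooled summits. GAGAG was at 4 of 22 summits (18.2%), against 19.3% for all genes with a pooled peak, and GAGA, which it contains, at 16 of 22 (72.7%) against 58.1%. The words were chosen on these summits, so the shares are a description and no test was made.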
